A study of Drosophila melanogaster with 6 samples.

Results

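The day-night difference in heads of Tim-Fbl flies was measured as the array of Tim-Fbl heads collected at ZT15 minus the array of Tim-Fbl heads collected at ZT3, which are 2 of the 6 arrays of the series. ZT, zeitgeber time, counts the hours since the lights came on, so ZT3 falls in the morning and ZT15 early in the night. The other 4 arrays are control heads, 2 at each of these times, and they gave both the control day-night difference and the spread between replicate arrays. All 6 arrays hybridised RNA of whole heads of female Drosophila melanogaster grown at 25 °C. The strains differ in the RNAi entry of their labels, which reads control or Tim-Fbl. The labels give no driver, construct, age or light schedule, and do not state whether the numbered replicates were separate cultures of flies. The p-values therefore reflect only how far these particular samples lie apart, a spread that may be technical. Each Tim-Fbl time has 1 array and no replicate, so a Tim-Fbl difference is a value without a test of its own.

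In the fly's circadian clock, the proteins Clock and Cycle switch on period (per) and timeless (tim), whose products build up in the night and shut off their own genes. A further loop runs through vrille (vri) and Pdp1, which turn Clock (Clk) down and up, so that Clk RNA is high when per and tim RNA is low. Clock genes in the head are active mainly in photoreceptors, glia, fat body and clock neurons, and many metabolic, sensory and detoxification genes follow them. The gene fumble (fbl) encodes pantothenate kinase, the first enzyme of coenzyme A synthesis.

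Array medians lay between 5.46 and 5.51 log2 units, and the Tim-Fbl arrays correlated with each other at r = 0.996 across probe sets, as did the control replicates at each time. The median of the poly-A spike-in probe sets was 6.76 in Tim-Fbl at ZT15 and 5.17 in Tim-Fbl at ZT3, and the control arrays had 5.22 to 5.89. The 18S RNA probe sets read 11.5 and 11.8 on the Tim-Fbl arrays. Control ZT15 replicate 2 was at 11.4 and the remaining controls were at 12.3 to 12.7. Markers of photoreceptors averaged 12.87 at ZT3 and 12.68 at ZT15 in Tim-Fbl, those of glia 10.61 and 10.68, and those of neurons 8.46 and 8.59. The 5 measured photoreceptor markers include inaD, which differed by -1.31, while the median difference of the 5 was -0.07. Markers of ovary stayed near 4.6 on both Tim-Fbl arrays and those of gut at 5.30 and 5.18, below the array medians. In RNA of whole heads, fewer cells of a type and less RNA per cell cannot be told apart.

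The target named in the strain label was read first. The fbl probe set read 7.47 at ZT3 and 7.49 at ZT15 in Tim-Fbl, against 9.28 and 9.26 on the control ZT3 arrays and 9.27 and 9.11 on the control ZT15 arrays. Both Tim-Fbl arrays lay below all 4 control arrays. The level was alike at both times, with a day-night difference of 0.03 in Tim-Fbl and -0.08 in controls. This probe set carries the manufacturer's suffix for sequence shared between transcripts.

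Few transcripts differed by time in Tim-Fbl, and their number was close to that between replicate control arrays. At least 2-fold differences, with the higher array at 5 or above, were found for 85 of 18769 probe sets, or 0.453%, of which 59 were higher at ZT15 (0.314%) and 26 lower (0.139%). The same count was 56 (0.298%) between the control ZT3 replicates and 81 (0.432%) between the control ZT15 replicates. Pairing single control arrays across times gave 78, 171, 135 and 224 probe sets (0.416%, 0.911%, 0.719% and 1.19%), and the larger counts, 171 and 224, were those with control ZT15 replicate 2. The SD of all Tim-Fbl differences was 0.227 log2 units, within the range of 0.218 and 0.239 for the control replicate pairs.

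**Figure D1:**
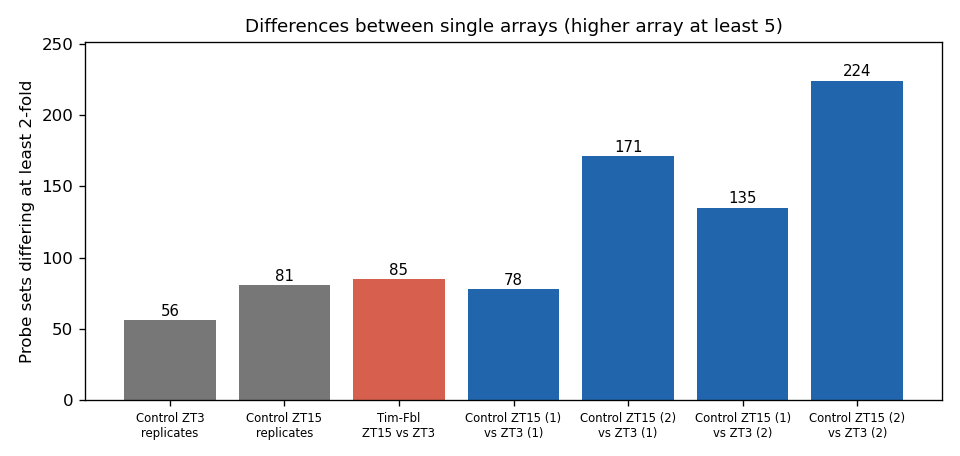
Number of probe sets that differ at least 2-fold between 2 single arrays, with the higher array at 5 or above; grey bars are control replicates of one time, the orange bar is Tim-Fbl ZT15 against ZT3, and blue bars are the 4 pairings of a control ZT15 with a control ZT3 array. The Tim-Fbl bar, at 85, stands beside the control ZT15 replicates at 81 and the lowest control day-night pairing at 78.

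Each Tim-Fbl difference was then read against the replicate spread of its own probe set. A probe set was counted as different when it differed at least 2-fold, reached 5 on the higher array and differed by more than both control replicate pairs of the same probe set. This left 73 probe sets (0.389%), 51 higher at ZT15 (0.272%) and 22 lower (0.117%), and those with 1 gene symbol stood for 62 genes. Of the 73, 25 also passed the control day-night test (limma, adjusted p under 0.05) in the same direction, 16 higher at night and 9 lower, and 55 had the control sign. Of the others, 24 had a control difference under 0.5, 15 had one of at least 0.5 with the same sign that did not pass, and for 9 the control difference was at least 0.5 and of the opposite sign. On 12 of the 73 the lower array was under 5, below the array medians, where the values are compressed.

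The core clock genes differed by time in Tim-Fbl with the sign they had in controls. Of 5 measured genes of the evening phase (per, tim, vri, Pdp1 and cwo), 3 were counted as higher at ZT15 in Tim-Fbl, and of 2 of the morning phase (Clk and cry), 1 was counted as lower. Over all probe sets, 0.272% were counted as higher in Tim-Fbl and 0.117% as lower. The evening genes had a median difference of 1.86 in Tim-Fbl and 2.68 in controls, and the morning genes -1.23 and -1.22, against a median of -0.01 over all probe sets in both. In controls 4 of the evening genes rose and both morning genes fell (limma, where 0.314% of all probe sets rose and 0.389% fell).

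The main tim probe set read 9.78 at ZT3 and 12.40 at ZT15 in Tim-Fbl, 9.88 and 9.48 on the control ZT3 arrays, and 12.30 and 12.40 on the control ZT15 arrays. Each Tim-Fbl array lay within the range of the control arrays of its time. The difference was 2.61 (6.13-fold) in Tim-Fbl and 2.68 ± 0.142 (SE) in controls, and the difference between strains was -0.06 ± 0.245 (limma interaction, adjusted p = 0.974). A dimmer tim probe set gave 1.71 in Tim-Fbl and 2.01 in controls.

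The per probe set, for the partner of Timeless in the repressor complex, read 6.32 and 8.39 in Tim-Fbl at ZT3 and ZT15, against 6.04 and 5.90 and then 8.68 and 8.63 in controls. Its Tim-Fbl array was above both controls at ZT3 and below both at ZT15, so the difference was smaller, at 2.07 (4.21-fold) against 2.68 ± 0.0946. The interaction of -0.61 ± 0.164 did not pass (limma adjusted p = 0.842).

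For vri, the repressor of Clk, Tim-Fbl read 8.94 at ZT3 and 10.81 at ZT15, with 8.19 and 7.58 on the control ZT3 arrays and 10.86 and 10.97 on the control ZT15 arrays. The gap between strains lay in the morning, when Tim-Fbl was above both control arrays, while at night it was just below them. The day-night difference was 1.86 (3.64-fold), or 61.6% of the control difference of 3.03 ± 0.189, and the interaction of -1.16 ± 0.328 did not pass (limma adjusted p = 0.842). The error of each interaction rests on 2 control pairs, with 2 residual degrees of freedom. In limma that variance is drawn towards a value shared by all probe sets, with 4.74 prior degrees of freedom.

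Pdp1, the activator of Clk, read 10.35 and 11.20 in Tim-Fbl, with a difference of 0.84 against 1.00 in controls. Clk read 7.71 at ZT3 and 6.11 at ZT15 in Tim-Fbl, 7.57 and 7.37 in control mornings, and 6.16 and 6.04 in control nights. Both strains were lower at night, with differences of -1.60 in Tim-Fbl and -1.37 ± 0.108 in controls, opposite in sign to per and tim, and the Tim-Fbl ZT15 array lay between the control ZT15 arrays. The blue-light photoreceptor gene cry, read at 9.78 and 8.91 in Tim-Fbl, differed by -0.87 against -1.07 in controls.

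The repressor gene clockwork orange (cwo) had 2 probe sets that gave different answers. The brighter one differed by 0.52 in Tim-Fbl and 0.65 in controls, and the dimmer one by 0.15 and 0.88, and neither control difference passed (limma adjusted p = 0.186 and 0.234). Cipc, whose mammalian counterpart inhibits CLOCK, read 10.07 and 10.22 in Tim-Fbl, a difference of 0.15, whereas controls read 9.52 and 8.93 in the morning and 10.52 and 10.39 at night. Both Tim-Fbl values lay between the control times. The Cipc control difference of 1.22 (limma adjusted p = 0.0505) and its interaction of -1.07 (limma adjusted p = 0.842) did not pass. No clock gene's interaction passed.

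**Figure D2:**
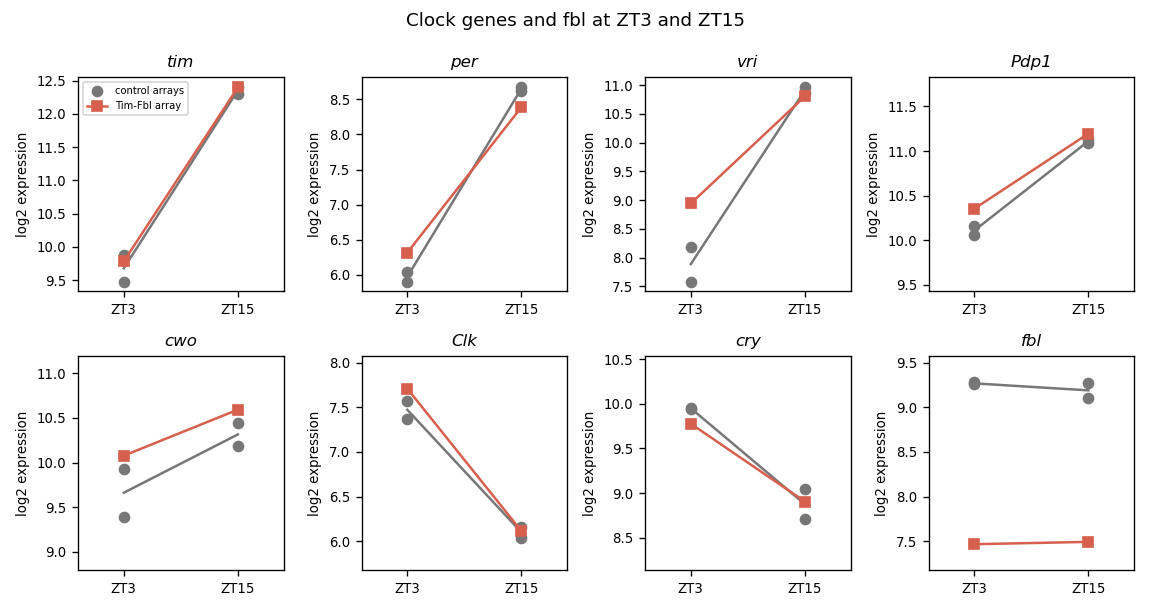
Log2 expression of 7 clock genes and fbl at ZT3 and ZT15; grey circles are the control arrays with a line through their means, orange squares are the single Tim-Fbl arrays, and each panel has its own vertical scale. The Tim-Fbl line runs close to the control line for tim, Clk and cry, starts higher at ZT3 for vri, and lies far below both control pairs for fbl at both times.

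The transcripts that differed by time in controls gave a wider set to follow in Tim-Fbl. Controls called 132 probe sets (0.703%), 59 higher at night and 73 lower. Their control differences were used to choose them and so tend to be overstated, whereas the Tim-Fbl differences come from other arrays. In Tim-Fbl, 71 of the 132 kept the sign and at least 50% of the control difference, 43 kept the sign with less than 50%, and 18 had the opposite sign. The sign was shared by 86.4% of them, against 57.5% of all probe sets.

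The control rises and falls differed by count in what was kept. Of the 59 rises, 41 (69.5%) kept at least 50%, 16 less and 2 had the opposite sign, with a median of 69.4% of the control difference. Of the 73 falls, 30 (41.1%) kept at least 50%, 27 less and 16 had the opposite sign, with a median of 33.3%. Among control differences of at least 2-fold, 22 of 22 rises and 14 of 32 falls kept at least 50%. The difference between rises and falls was not tested, and the shares moved with the control arrays used: without control ZT15 replicate 1 they were 40.3% for rises and 25.3% for falls, and without control ZT3 replicate 2 they were 100% and 63.6%. The control calls themselves numbered 340 and 27 in these fits, and 72 without control ZT3 replicate 1. The share of rises was above that of falls in each. Of rises of at least 2-fold, 26 of 60 kept at least 50% without control ZT15 replicate 1.

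Several night-high transcripts outside the core clock were also higher at ZT15 in Tim-Fbl. The deubiquitinase gene Usp8 read 8.32 and 9.88 in Tim-Fbl, against 7.86 and 7.79 and then 10.16 and 9.94 in controls. Its difference of 1.57 was 70.5% of the control one, and the Tim-Fbl ZT3 array was above both control ZT3 arrays. The ubiquitin ligase gene goliath (gol) differed by 1.61 against 2.11 in controls, but a dimmer gol probe set did so by -0.06 against 0.47. A myosin gene, Myo28B1, differed by 1.48 against 1.85 on the brighter of its probe sets. M7BP differed by 1.15 against 1.61 on 1 of 3 probe sets, and by 0.12 and -0.54 in Tim-Fbl on the others. CG14221 was as far apart in Tim-Fbl as in controls, at 1.93 and 1.74, and CG31954 was further apart, at 2.05 and 1.33. CG2681 showed the smallest share among the largest control rises, 51.5%, with differences of 0.99 and 1.91, and its interaction did not pass (limma adjusted p = 0.391).

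The 10 largest named control falls were all lower at night in Tim-Fbl too. The smallest share among them was that of CG10184, 30.5%, with differences of -0.54 in Tim-Fbl and -1.76 in controls. Its interaction did not pass (limma adjusted p = 0.842). Ugt35B1, a UDP-glycosyltransferase that joins sugars to small molecules, read 9.86 and 8.39 in Tim-Fbl, a difference of -1.46 against -2.06 in controls. The replication licensing gene Cdc6 differed by -1.65 against -2.0, the activity-induced nuclear receptor gene Hr38 by -1.29 against -1.51 on the brighter of its probe sets (0.16 and -0.21 on the other, which read under 5), and CG34134 by -1.67 against -2.24. FarO, a fatty acyl-CoA reductase gene, was as far apart in Tim-Fbl (-1.46) as in controls (-1.34).

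CG42329 had the largest control fall and a much smaller Tim-Fbl difference. It read 7.92 and 6.88 in Tim-Fbl, against 8.70 and 8.62 in control mornings and 6.19 and 6.08 in control nights. Both Tim-Fbl arrays thus lay between the control times, and the difference of -1.04 was 41.3% of the control one. The interaction of 1.48 ± 0.162 did not pass (limma adjusted p = 0.101), but did without control ZT15 replicate 1 or 2 (limma adjusted p = 0.0196 and 0.0378) and with robust variances (limma adjusted p = 0.0452). A dimmer CG42329 probe set, under 5 on both Tim-Fbl arrays, differed by -0.24 and -0.28.

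**Figure D3:**
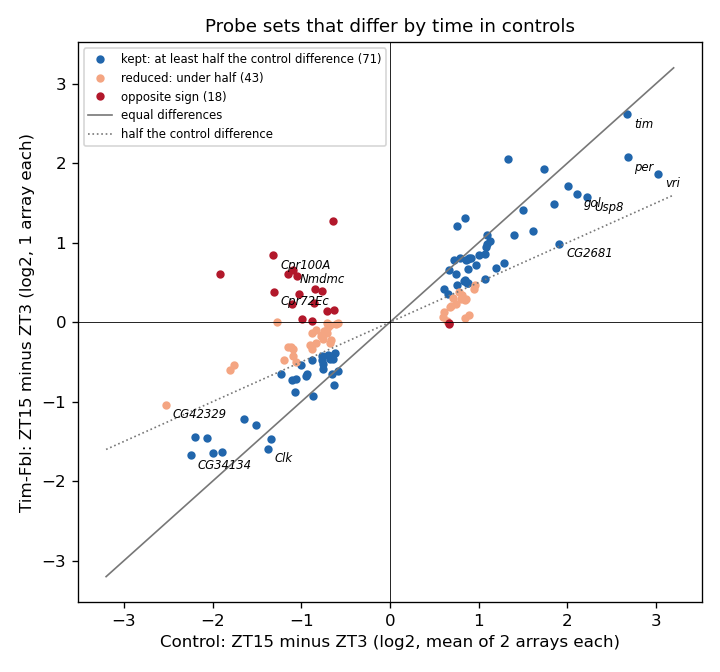
Day-night difference (ZT15 minus ZT3, log2) in Tim-Fbl, vertical, against controls, horizontal, for the 132 probe sets called in controls; the solid line marks equal differences and the dotted line 50% of the control difference. Points on the right lie mostly between both lines, while points on the left spread up to and across 0.

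Other control falls had little or no counterpart in Tim-Fbl. The genes in this paragraph were picked from those classes after their values were seen. Nmdmc, a mitochondrial folate enzyme gene, differed by 0.66 in Tim-Fbl and -1.09 in controls, and the arginase gene arg by 0.35 and -1.02. The odorant-binding protein gene lush differed by 0.23 and -1.11, and CG3999 by 0.00 and -1.27. Of the rises, the eye transcription factor gene lozenge (lz) differed by 0.06 in Tim-Fbl and 0.85 in controls, and Cyp6w1, a cytochrome P450 gene, by -0.03 and 0.66.

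The test of whether the day-night difference itself differed between strains was the limma interaction, in which each Tim-Fbl array was assumed to vary like a control array. It called 7 probe sets (0.0373%), 6 with a more positive difference in Tim-Fbl (0.032%) and 1 with a more negative one (0.00533%), while 1014 (5.40%) had an unadjusted p under 0.05. The calls are close to the threshold. None was called after quantile normalization, after cyclic loess, with dim probe sets left out or without control ZT3 replicate 2, and 1 of the 7, edin, was called without control ZT3 replicate 1. Without control ZT15 replicate 1 or 2, 57 and 31 probe sets were called, all 7 among them. The size of the edin interaction stayed between 3.99 and 4.62 over the settings tried.

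The largest of the 7 was edin, which encodes a short peptide induced by infection. It read 4.59 at ZT3 and 8.31 at ZT15 in Tim-Fbl, 4.79 and 5.41 on the control ZT3 arrays, and 4.68 and 4.36 on the control ZT15 arrays. Of the 6 arrays, the Tim-Fbl ZT15 array alone was high. The difference was 3.72 (13.2-fold) in Tim-Fbl and -0.58 in controls, and the interaction was 4.30 ± 0.362 (limma adjusted p = 0.0282). The other 5 arrays were below the array medians, so the fold rests on a level where the values are compressed.

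Cuticle protein genes of the Cpr family, which encode chitin-binding proteins of the exoskeleton, gave 2 of the 7. Cpr100A read 8.34 and 9.18 in Tim-Fbl, against 8.48 and 8.62 and then 7.32 and 7.15 in controls. It differed at night in controls by -1.31 ± 0.104 (limma adjusted p = 0.00477), and was higher at night by 0.84 in Tim-Fbl (interaction 2.15 ± 0.181, limma adjusted p = 0.0282). Cpr62Bc read 6.83 and 8.32 in Tim-Fbl and 6.83, 6.57, 6.12 and 6.16 in controls, in the same order of times. Only the Tim-Fbl ZT15 array was above the control ZT3 values, and the interaction was 2.06 ± 0.193 (limma adjusted p = 0.0491). Over 66 measured Cpr genes, a list chosen after the values were seen, 1 (1.52%) was counted as higher in Tim-Fbl and 0 as lower. Of all named genes, 0.334% were counted as higher and 0.142% as lower. The interaction passed for 2 of the 66, against 6 of 11982 named genes. The median difference of the list was -0.02 in Tim-Fbl and -0.10 in controls.

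CG13043 read 4.71 and 6.20 in Tim-Fbl and between 4.83 and 5.60 on the control arrays, with an interaction of 2.14 ± 0.178 (limma adjusted p = 0.0282). CG11353, on a probe set shared between transcripts, read 5.10 and 7.61 in Tim-Fbl and between 4.23 and 4.63 in controls (interaction 2.71 ± 0.223, limma adjusted p = 0.0282). In both, the Tim-Fbl ZT15 array was above all control arrays. A probe set with several gene symbols, and so not named, differed by 1.28 in Tim-Fbl but stayed under 5 on all arrays.

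CG33474 was the 1 call in the other direction. It read 7.19 at ZT3 and 4.32 at ZT15 in Tim-Fbl, and 4.24, 4.35, 3.99 and 4.32 on the control arrays. The Tim-Fbl ZT3 array alone was high, so the night value was lower by 7.32-fold, and the interaction was -2.73 ± 0.224 (limma adjusted p = 0.0282). CG11825 had the same shape, at 9.50 and 7.09 in Tim-Fbl and 6.29 to 6.85 in controls, but its interaction did not pass (limma adjusted p = 0.288), except without control ZT15 replicate 1 or 2 (limma adjusted p = 0.0106 and 0.00224).

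**Figure D4:**
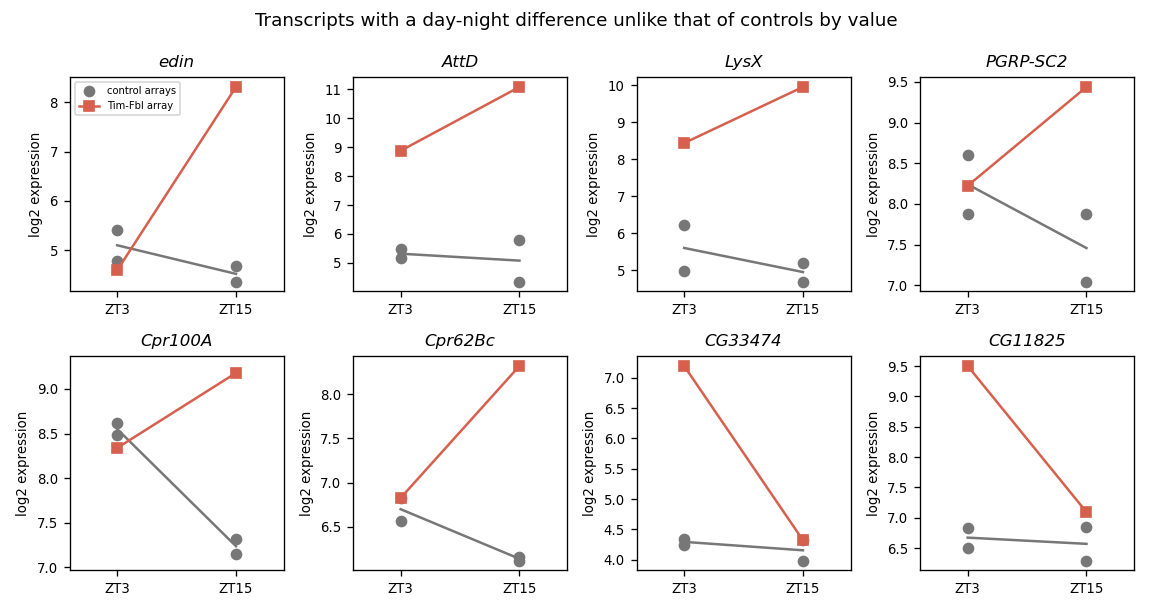
Log2 expression at ZT3 and ZT15 of 8 transcripts whose day-night difference in Tim-Fbl was unlike that in controls by value; grey circles are control arrays with a line through their means, orange squares the single Tim-Fbl arrays, and scales differ between panels. The interaction passed for edin, Cpr100A, Cpr62Bc and CG33474 and did not for AttD, LysX, PGRP-SC2 and CG11825.

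Most immune genes were higher at ZT15 than at ZT3 in Tim-Fbl. Of 18 measured genes on a list of antimicrobial and immune genes, 17 were higher at ZT15, 5 of them counted as different (edin, AttD, LysX, PGRP-SC2 and PGRP-SB1) and 0 counted as lower. The median difference was 0.53 in Tim-Fbl and -0.38 in controls, against -0.01 in both over all probe sets, and of 11982 named genes 5827 were higher at ZT15 and 40 were counted as higher. In controls 0 of the 18 passed in either direction. The mean level of the list was 9.78 at ZT3 and 10.73 at ZT15 in Tim-Fbl, 9.24 and 9.68 on the control ZT3 arrays, and 8.69 and 9.26 on the control ZT15 arrays. Both Tim-Fbl arrays were above all 4 control arrays, the ZT15 array by more.

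The attacin gene AttD, for an antibacterial peptide, read 8.87 and 11.07 in Tim-Fbl and 5.47, 5.17, 5.80 and 4.36 on the control arrays. Both Tim-Fbl arrays were far above the controls, with the night array higher by 2.20, and the largest difference between control replicates was 1.45. The lysozyme gene LysX behaved alike, at 8.44 and 9.96 in Tim-Fbl and 4.70 to 6.22 in controls, a difference of 1.52 against a replicate difference of up to 1.23. PGRP-SC2 and PGRP-SB1 encode enzymes that cut bacterial peptidoglycan. PGRP-SC2 read 8.22 and 9.44 in Tim-Fbl and 7.05 to 8.61 in controls, a difference of 1.22 against a replicate difference of up to 0.83, and its ZT15 array alone was above the control range. PGRP-SB1 read 11.32 and 12.44 in Tim-Fbl, both within the control range of 11.24 to 12.57, a difference of 1.11 against a replicate difference of up to 0.94. None of these 4 interactions passed (limma adjusted p = 0.842). That of AttD passed without control ZT15 replicate 1 or 2 (limma adjusted p = 0.000648 and 0.031), and that of PGRP-SC2 without control ZT15 replicate 1 (limma adjusted p = 0.0323).

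The cecropin gene CecB differed by 2.32 and the diptericin gene DptB by 2.01 in Tim-Fbl, but control replicates differed by up to 2.5 and 2.79, so neither was counted. Relish (Rel), the transcription factor of the Imd pathway, differed by 0.03, and pirk, an inhibitor of that pathway, by -0.20. The hemocyte markers averaged 10.03 at ZT3 and 10.01 at ZT15 in Tim-Fbl, and the fat body markers 13.77 and 14. The spike-in median was high on the same Tim-Fbl ZT15 array, and its part in the result was not tested.

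Phototransduction genes had 0 members counted as higher and 2 of 16 as lower at ZT15 in Tim-Fbl, where 0.117% of all probe sets were counted as lower. The list's median difference was -0.09 in Tim-Fbl and 0.05 in controls. The scaffold gene inaD, which holds the light-signalling proteins together, read 11.74 and 10.43 in Tim-Fbl, 11.63 and 11.59 in control mornings and 10.77 and 11.12 in control nights. The Tim-Fbl ZT15 array was below both control ZT15 arrays, and the difference was -1.31 against -0.67 in controls. Pdh, a retinal pigment-cell dehydrogenase that acts on the visual chromophore, read 10.33 and 9.12 in Tim-Fbl and 13.29 to 13.88 in controls. It was far lower on both Tim-Fbl arrays, with a day-night difference of -1.21 against -0.52. Neither interaction passed (limma adjusted p = 0.842 and 0.711).

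On a list of 16 DNA replication genes chosen after the values were seen, 4 fell in control nights (limma), Cdc6, PCNA, RnrL and Claspin, where 0.389% of all probe sets fell. In Tim-Fbl 1 of the 16, Cdc6, was counted as lower, where 0.117% of all probe sets were. PCNA, the sliding clamp, differed by 0.01 in Tim-Fbl and -0.88 in controls, RnrL, a ribonucleotide reductase subunit, by -0.14 and -0.71, and the checkpoint gene Claspin by 0.15 and -0.63. The list's median difference was 0.00 in Tim-Fbl and -0.19 in controls, and 0 of the 16 interactions passed.

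Pepck1 and tobi were the members of the sugar metabolism lists that were counted as different. The gluconeogenic enzyme gene Pepck1 read 10.66 and 12.33 in Tim-Fbl and between 12 and 12.61 on the control arrays. The Tim-Fbl ZT3 array was low, and its ZT15 array was within the control range, a difference of 1.67. The alpha-glucosidase gene tobi, a target of brain insulin, differed by 2.53, from 9.51 to 12.04, where control ZT3 replicates differed by 1.86. Controls differed with the same sign, by 0.30 for Pepck1 and 1.24 for tobi, and neither interaction passed.

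On each of the metabolic lists 0, 1 or 2 members were counted as different, all of them higher at ZT15 except Ugt35B1. Of all named genes, 0.334% were counted as higher and 0.142% as lower. Of 13 glycolytic and gluconeogenic genes 1 was counted as different (Pepck1), of 14 insulin, sugar and starvation genes 1 (tobi), of 14 fat synthesis and 8 fat breakdown genes 0, and of 4 coenzyme A synthesis genes 0. Their medians in Tim-Fbl lay between -0.12 and 0.18. The P450 genes gave 2 of 83, Cyp4c3 and Cyp18a1, with differences of 1.21 and 1.08, and the 34 glutathione S-transferase genes 0. Both P450 genes were higher at night in controls too, by 0.76 and 0.85. That of Cyp4c3 passed (limma adjusted p = 0.0288) and that of Cyp18a1 did not (limma adjusted p = 0.131). Of 35 UDP-glycosyltransferase genes 0 were counted as higher and 1 as lower, Ugt35B1. In controls 4 of the 35 fell (limma), where 0.389% of all probe sets fell. Of 47 odorant-binding protein genes 1 was counted, Obp99a, at 1.64, where control replicates differed by up to 1.36.

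Genes of oxidative defence gave 0 of 15 on the antioxidant list. Outside that list, Prx6c, a peroxiredoxin gene, read 10.65 at ZT3 and 8.38 at ZT15 in Tim-Fbl, against 7.40 to 8.71 in controls. The ZT3 array alone was above the control range. MsrA, which repairs oxidised methionine, differed by -1.09 in Tim-Fbl and by 0.33 in controls. Control replicates differed by up to 1.31 for Prx6c and 0.72 for MsrA, and neither interaction passed. The neuropeptide list gave 0 of 25 and the heat shock list 0 of 7, with median differences of -0.01 and 0.22.

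On the list of known rhythmic head output genes, 5 of 30 were counted as higher at ZT15 in Tim-Fbl and 4 as lower, against 0.272% and 0.117% of all probe sets. In controls 4 of the 30 rose and 5 fell (limma), against 0.314% and 0.389% of all probe sets. The members named above, Usp8, gol, Ugt35B1 and Hr38, passed in controls, while Obp99a and Pdh did not. The list's median difference was 0.02 in Tim-Fbl and -0.05 in controls.

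Other large Tim-Fbl differences fell outside the metabolic lists. CAH5, a carbonic anhydrase gene, differed by 3.16 in Tim-Fbl and 1.86 in controls, with control ZT15 replicates 1.86 apart. Of the 6 fat body markers 1 was counted, the storage protein gene Lsp2, which differed by 1.34 where control replicates differed by up to 1.21. CG5966 read 8.18 and 10.89 in Tim-Fbl, against 8.77 to 10.61 on the control arrays. Its ZT3 array was below and its ZT15 array above all controls, a difference of 2.71. CG6409 had the same shape, at 11 and 12.26 against 11.55 to 11.99. CG14191 read 6.32 and 8.40 in Tim-Fbl, a difference of 2.09, against 5.09 to 6.15 in controls, where replicates differed by up to 0.98. CG40486 read 4.37 and 6.70 in Tim-Fbl, a difference of 2.33, and another CG40486 probe set differed by -0.36. The first CG40486 probe set read 3.05 to 3.91 in controls, under 5 on every control array, with a difference of 0.68. The interactions of CG14191 and CG40486 did not pass (limma adjusted p = 0.501 and 0.158). They did with the replicate number as a block (limma adjusted p = 0.0384 and 0.0354). Srg2 was under 5 on all control arrays, at 3.77 to 4.01, and read 7.26 and 8.82 in Tim-Fbl, a difference of 1.56 whose interaction did not pass (limma adjusted p = 0.129). It passed without control ZT15 replicate 1 or 2 (limma adjusted p = 0.0101 and 0.031) and with robust variances (limma adjusted p = 0.0495). CG12116 was lower at night in both strains, by value, at -1.42 in Tim-Fbl and -0.91 in controls. CG7214 had opposite signs, at 1.26 in Tim-Fbl and -1.90 in controls, where replicates differed by up to 1.09. The CG7214 interaction of 3.16 did not pass (limma adjusted p = 0.574), but did with the replicate number as a block (limma adjusted p = 0.003).

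**Figure D5:**
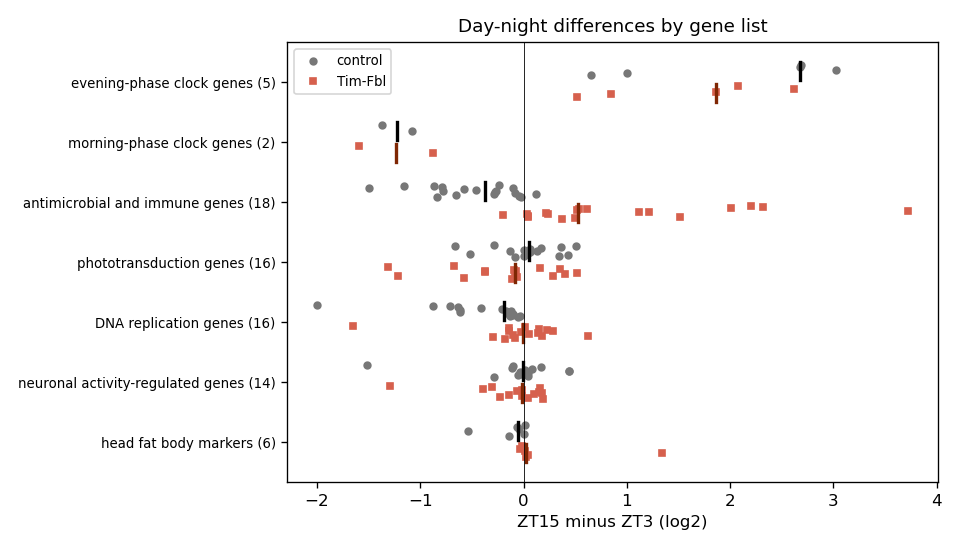
Day-night difference (ZT15 minus ZT3, log2) of each measured gene on 7 lists, with controls as grey circles, Tim-Fbl as orange squares and vertical ticks at the medians; the number of measured genes is in brackets. The immune list is shifted to the right in Tim-Fbl, with a median of 0.53 against -0.38 in controls, while the DNA replication list has a median of 0.00 against -0.19.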

How the data were processed

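RNA of female heads had been hybridised to 6 Affymetrix arrays, and the authors deposited 1 log2 value per probe set and array. The submitters' processing notes name RMA, which combines a probe set's probes and brings the arrays to a common distribution; neither version nor settings are given in the sources used here. That the values are log2 was judged from their range. RMA hides a shift shared by all transcripts and compresses dim probe sets. No detection calls or genome build were used, and for arrays their number limits the precision. Of 18952 probe sets, 183 manufacturer's controls were left out, leaving 18769. The platform annotation gave 1 symbol to 13647, several to 402 and none to 4720; a RefSeq gene table changed 0 symbols and left 103 identifiers unmatched. The number of unused value columns was 0.

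Groups came from the sample titles. Values were used as deposited. The control day-night difference and the interaction (Tim-Fbl difference minus control difference) were tested with limma 3.58.1 in R 4.3.3, as 4 group means over 6 arrays with 2 residual degrees of freedom from the control pairs, and Benjamini-Hochberg adjusted over all probe sets with a threshold of 0.05. The Tim-Fbl difference was used as a value; a limma contrast of the 2 arrays that borrows the control spread was run only as an alternative. Lists used the probe set with the highest mean per gene. The functions were tested on simulated arrays.

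The genes named were drawn from sets, and not every member of a set is named. The sets are the clock genes and fbl, the largest control rises and falls (10 each) and the largest Tim-Fbl differences (12 each way). A further set is the largest interactions (10 each way). Up to 6 differing members of a described list were added, and up to 6 each way of those different in Tim-Fbl and not in controls. Others are said to be chosen after their values were seen or are given as members of a list. The Tim-Fbl pair, the lists and these rules were chosen with earlier results of these data known. Probe sets with shared sequence include vri, Clk, Pdp1, fbl and CG11353. Alternatives were median subtraction, quantile normalization, cyclic loess, filters on the mean at 5 and 7, 1.5-fold, other variance models, the replicate number as a block, 1 probe set per gene and each control array left out. Figures were drawn with matplotlib 3.10.9.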

Additional observations from a re-analysis of the deposited data

Results flagged for a closer look

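The day-night difference differed between strains by the limma interaction for 7 probe sets, given as Tim-Fbl difference minus control difference on the log2 scale. The values were 4.3 for edin, 2.71 for CG11353, 2.15 for Cpr100A, 2.14 for CG13043, 2.06 for Cpr62Bc, 1.92 for a probe set with several gene symbols and -2.73 for CG33474. For edin the interaction lay between 3.99 and 4.62 over the 11 settings tried, and its limma adjusted p between 0.000648 and 0.137. It passed in 6 of them. For CG33474 it lay between -2.90 and -2.56 over 10 settings, and passed in 6.

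The poly-A spike-in probe sets, which are not fly transcripts and were left out of all tests, were brighter in Tim-Fbl at ZT15 than on any control array, at a median of 6.76.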

How the results depend on the processing

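The 73 probe sets counted as different in Tim-Fbl became 40 with a mean under 7 left out, 305 at 1.5-fold (212 higher, 93 lower) and 31 by a limma contrast that borrows the control spread; they were 75 to 77 without 1 control array. The 24 different in Tim-Fbl and not in controls became 14 with a mean under 7 left out and 21 to 34 without 1 control array. The control calls, 132 (59 higher, 73 lower), became 83 and 75 with means under 5 and 7 left out, 214 with robust variances and 27 to 340 without 1 control array (27 without ZT3 replicate 2, 340 without ZT15 replicate 1). Their split was 76 higher and 66 lower after median subtraction, 40 and 61 with quantile normalization and 37 and 67 with cyclic loess. With the replicate number as a block, control calls were 334 and interaction calls 23, with CG42329, Srg2, LysX, MsrA and Pepck1 among the latter. The control replicate differences at ZT3 and ZT15 correlated at 0.0381 across probe sets. The labels give only the replicate number, and whether it marks a shared batch was not tested.

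The share of control calls that kept at least 50% in Tim-Fbl, 53.8%, was 66.7% at 2-fold and 32.1% to 85.2% without 1 control array. For rises, 69.5%, it was 83.8% after cyclic loess, 100% at 2-fold and 40.3% to 100% without 1 control array; for falls, 41.1%, it was 25.3% to 63.6%. For rises of at least 2-fold, 100%, it was 80.6% with the replicate block and 43.3% to 100% without 1 control array; for such falls, 43.8%, it was 27.5% to 63.6%. The 7 interaction calls became 0 under quantile normalization or cyclic loess (1079 and 1105 at an unadjusted limma p under 0.05), 0 with means under 5 or 7 left out (596 and 445), 10 with robust variances, and 0 to 57 without 1 control array (0 without ZT3 replicate 2, with 956 at an unadjusted p under 0.05; 57 without ZT15 replicate 1). The cause of these moves was not tested.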
